A study of Rattus norvegicus with 19 samples.

Results

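The genes described here are 10 genes of the integrated and mitochondrial stress response, named by their rat symbols Atf4, Ddit3, Asns, Trib3, Chac1, Sesn2, Fgf21, Gdf15, Psat1 and Mthfd2. They were taken as a list of ATF4-pathway symbols and looked up in the count files. All 10 were found among the 17455 gene symbols counted, and all 10 passed the expression filter that left 12388 genes for testing.

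In the integrated stress response, kinases that sense misfolded protein, amino acid shortage, haem shortage or double-stranded RNA phosphorylate the translation factor eIF2. General protein synthesis then slows while the messenger RNA of the transcription factor ATF4 is translated more, so that ATF4 protein can rise without a rise of its transcript. ATF4 turns on genes of amino acid supply and of cell death, and in heart and skeletal muscle with defects of the respiratory chain it is known for raising mitochondrial folate enzymes and the secreted factors FGF21 and GDF15.

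The samples were hearts of Sprague-Dawley rats, tagged as wild type and as male (the protocol text describes equal numbers of both sexes for the whole study, and the paper's methods name left ventricles of males as the source of RNA), that were 24 weeks old when the experiments began. HFpEF, heart failure in which the ejection fraction is preserved, was induced for 5 weeks with a diet that supplied 60% of its energy as fat, together with water containing 0.5 g/L L-NAME, which blocks the synthesis of nitric oxide. The paper's discussion also speaks of 9 weeks of induction, so whether diet and L-NAME went on after week 5 is not settled here. Control rats had no L-NAME and, according to the paper, ate normal chow. They were sampled at both times, as control 5w and control 9w, with 3 libraries each. HFpEF 5w (3 libraries) was taken at the end of induction. The other diseased rats were gavaged for 4 further weeks and taken at week 9: untreated 9w (3 libraries) received phosphate-buffered saline, EMPA 9w (2 libraries) received 0.35 g/kg/day of empagliflozin, which inhibits the glucose transporter SGLT2, PFD 9w (2 libraries) received 0.3 g/kg/day of the antifibrotic pirfenidone, and EMPA + PFD 9w (3 libraries) received both. The labels number the libraries of a group as biological replicates. Total counts ran from 7430539 to 13017754 per library over the 19 libraries, with a median of 9951011.

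Levels below are CPM, the counts of a gene relative to the library total, after TMM scaling. They depend on transcript length, so they are compared between libraries and not between genes. Where a gene is given as leading a list, it had the highest CPM there, which ranks reads and not transcripts. A gene was called when edgeR's quasi-likelihood test gave a Benjamini-Hochberg adjusted p under 0.05 over all 12388 genes together with a log2 fold change of 1 or more in either direction. Fold changes are given with their standard error (SE).

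Before the results, some libraries need describing. The Y-linked gene Eif2s3y was counted 613 to 1321 times in each of 12 libraries and not once (0 counts) in the other 7, although all carry the tag male. The 7 were HFpEF 5w replicates 1 and 3, all 3 untreated 9w libraries and both PFD 9w libraries. Every library of both control groups had Eif2s3y counts, so at week 9 the disease effect and this split cannot be told apart. All EMPA 9w and EMPA + PFD 9w libraries also had counts, so their comparisons with untreated 9w cannot be told apart from the split either. Only within HFpEF 5w did the libraries fall on both sides of the split. A term for Eif2s3y at 0 counts is thus estimated from that group alone, and with it the HFpEF 5w value is that of replicate 2, a single library.

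The tissue label was checked against markers. Of 9 cardiomyocyte genes listed, 8 were counted, and none of the 8 was at 0 in any library. Their summed level was 60260, 23200 and 26800 CPM in control 5w, 8037, 18160 and 24860 in HFpEF 5w, 30230, 34360 and 33190 in control 9w and 55340, 17480 and 42990 in untreated 9w, with Myh6, the alpha myosin heavy chain, leading the list. It was 34360 and 24800 CPM in EMPA 9w, 48210 and 58810 in PFD 9w, and 49930, 86250 and 70720 in EMPA + PFD 9w. HFpEF 5w replicate 1 was thus the lowest library and EMPA + PFD 9w replicate 2 the highest. The atrial genes Myl4 and Sln set other libraries apart: Myl4 had 305 CPM in control 9w replicate 1, 1381 in control 9w replicate 3 and 1597 in untreated 9w replicate 2, against at most 33.8 CPM in each of the other libraries. These 3 libraries were also the only ones in which Sln passed 100 CPM, at 156.5, 695.5 and 518 CPM in the same order.

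In control 9w against control 5w, which asks what changed over the 4 weeks without disease, 2 of 10 were called, both higher at week 9, where 14.7% of all tested genes were called and 7.46% were called and higher. The 1817 genes of that share were 1206 without control 9w replicate 2. The 2 genes were Trib3 and Fgf21. In HFpEF 5w against control 5w, the disease effect at the end of induction, 0 of 10 were called in edgeR against 8.69% of all genes, while 3 had an unadjusted p under 0.05 beside 35.8% of all genes. DESeq2 called 0, and limma voom with sample quality weights called 2, Trib3 and Fgf21, beside 1271 and 1363 of the 12388 genes. In untreated 9w against control 9w, the disease effect 4 weeks later, edgeR called 0 of 10 against 0.912% of all genes, while 1 had an unadjusted p under 0.05 beside 18.2%. DESeq2 called 1, Mthfd2, and voom called 2, Chac1 and Mthfd2, beside 297 and 1037 of all genes. With 10 genes, each call moves the share by much, and nothing particular to the list is read from these counts.

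The median log2 fold change places the list beside all genes. In HFpEF 5w against control 5w it was 0.52 over the 10 genes and 0.02 over all tested genes, and all 10 values were positive. The medians were 0.59 and -0.04 in control 9w against control 5w, with 8 positive and 2 negative values. Both comparisons are set against the same 3 control 5w libraries. The medians were -0.15 and 0.01 in untreated 9w against control 9w, with 7 negative values.

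**Figure D1:**
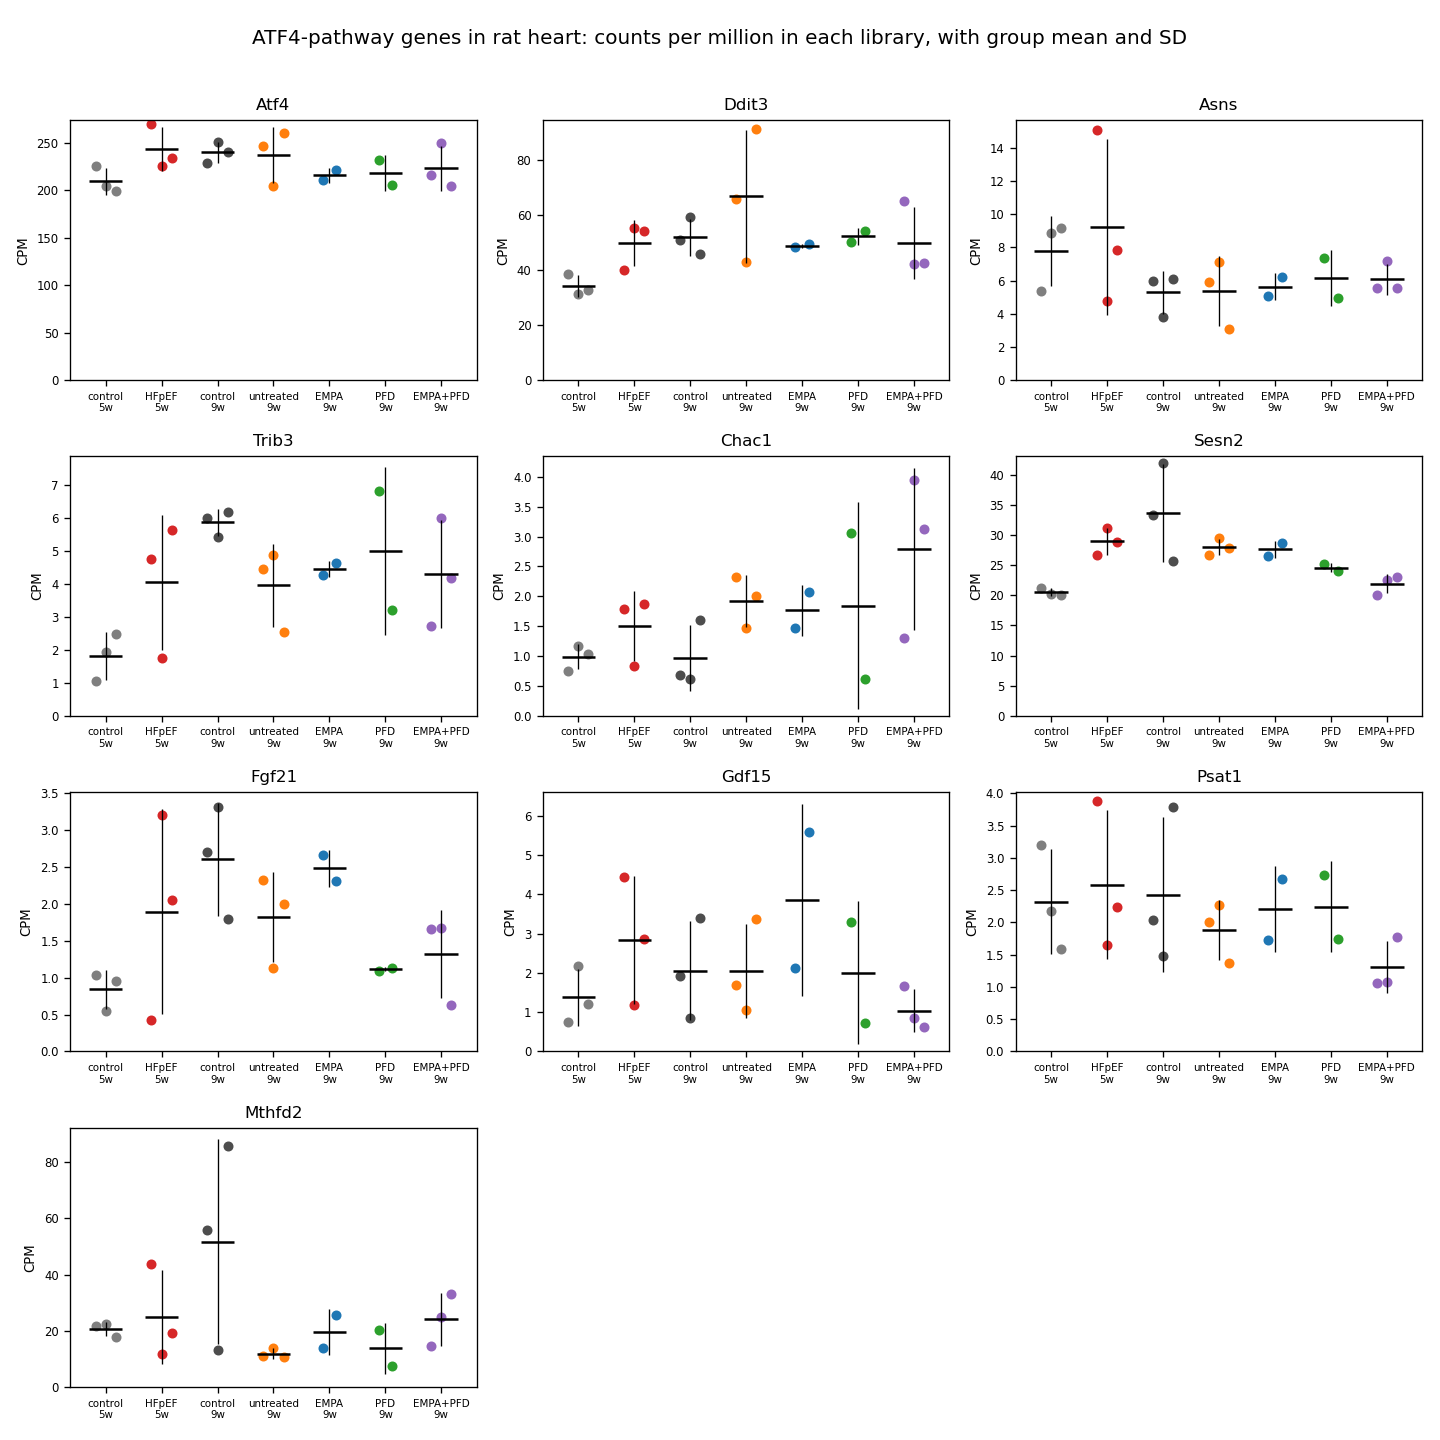
Each panel plots 1 of the 10 genes, with CPM on a vertical axis that starts at 0 and the 7 groups along the horizontal axis; points are libraries, thick lines are group means and thin lines are SD. Trib3 lies between 1.04 and 2.47 CPM in control 5w and between 5.41 and 6.18 in control 9w, and Mthfd2 in control 9w spreads from 13.3 to 85.9.

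**Figure D2:**
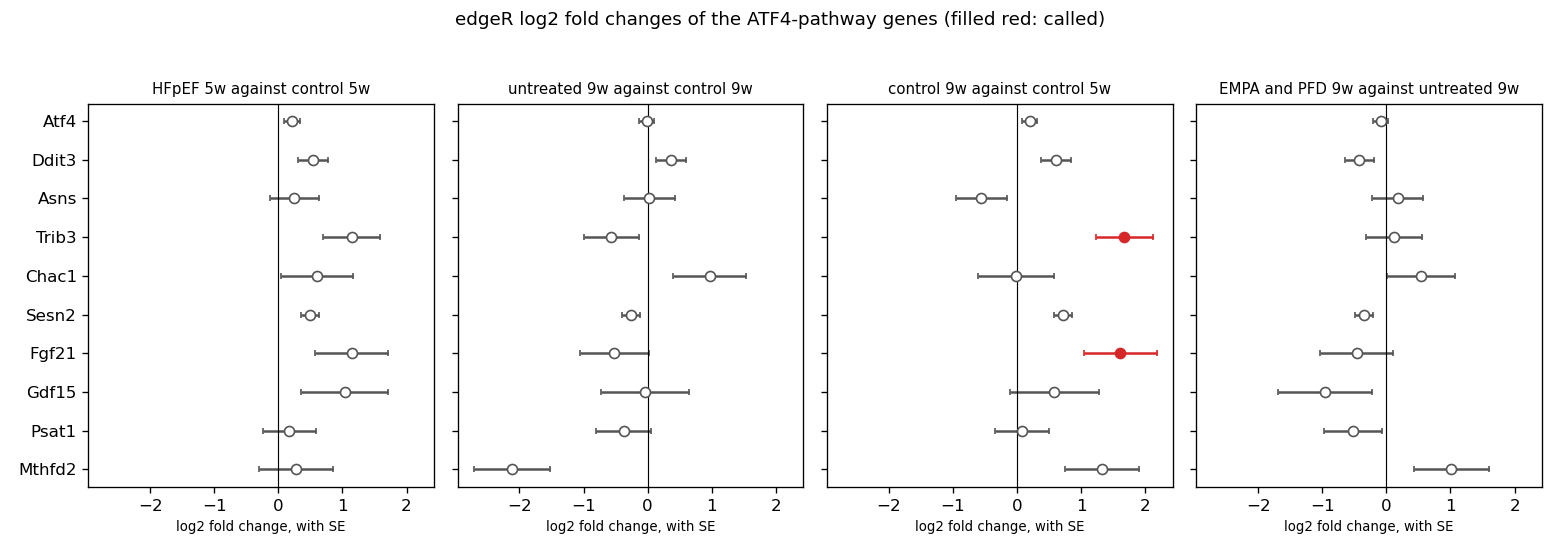
Each panel plots the edgeR log2 fold change of the 10 genes in 1 comparison on the horizontal axis, with SE as bars; filled red points are called genes and open points are not. The called points are Trib3 and Fgf21 in control 9w against control 5w.

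Of the transcription factors, Atf4 itself was nearly level across the study. Its lowest library had 199 CPM, its median library 226 and its highest 269.9, and its highest group mean was 1.16 times its lowest. HFpEF 5w replicates had 269.9, 226 and 234 CPM, and control 5w replicates had 226, 204 and 199, so the lowest HFpEF 5w library was level with the highest control 5w library. The log2 fold change was 0.22 (SE 0.12), with an adjusted p of 0.213 from edgeR with Benjamini-Hochberg adjustment.

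Ddit3 encodes CHOP, a factor that ATF4 induces and that takes part in stress-related cell death. It had 38.6, 31.3 and 32.7 CPM in control 5w, 40.2, 55.3 and 54.4 in HFpEF 5w and 50.9, 59.2 and 45.8 in control 9w. Every library of HFpEF 5w and of control 9w lay above every library of control 5w. Of all genes, 37.7% had no overlap in HFpEF 5w against control 5w, and 49.4% in control 9w against control 5w. Of the 10 members, 3 and 5 had none. Neither difference was called: the log2 fold change was 0.55 (SE 0.23) for HFpEF 5w, with an adjusted p of 0.106 in edgeR with Benjamini-Hochberg adjustment. For control 9w against control 5w it was 0.60 (SE 0.23), with an adjusted p of 0.0573 from the same test and adjustment. Over the alternatives the latter ran from 0.50 to 0.707 and its adjusted p from 6.94e-05 to 0.182, under 0.05 in DESeq2 and voom among others. The HFpEF 5w value ran from 0.467 to 0.698, with an adjusted p under 0.05 in voom and without untreated 9w replicate 2. The untreated 9w libraries were wide apart at 65.9, 43.1 and 91.5 CPM, and overlapped control 9w. Ddit3 overlaps the gene Mars1 in the RefSeq table of assembly GRCr8, and since the strand setting of the counting is not given in the sources used here, its counts could hold reads of that neighbour.

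Trib3, a pseudokinase that binds ATF4 and CHOP and damps the response, was called in control 9w. It had 1.04, 1.94 and 2.47 CPM in control 5w (11, 25 and 31 counts) and 5.98, 5.41 and 6.18 CPM in control 9w (53, 44 and 62 counts). The lowest control 9w library was above the highest control 5w library, in a comparison where 49.4% of all genes had no overlap. Trib3 rose by 1.68 on the log2 scale (SE 0.45), with an adjusted p of 0.0110 from edgeR with Benjamini-Hochberg adjustment. The call held in each of its 15 alternative fits, in which the log2 fold change ran from 1.37 to 1.96.

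In HFpEF 5w, Trib3 had 4.74, 1.74 and 5.63 CPM. Replicates 1 and 3, the 2 libraries with 0 counts of Eif2s3y, were above all of control 5w, and replicate 2, which has Eif2s3y counts, was within it. The log2 fold change was 1.14 (SE 0.45), with an adjusted p of 0.0827 in edgeR with Benjamini-Hochberg adjustment. Without HFpEF 5w replicate 2 it was 1.496 and called (adjusted p 0.0322, same test and adjustment), and with the Eif2s3y term, which leaves replicate 2 alone against control 5w, it was -0.068 (adjusted p 0.953); over all alternatives the adjusted p ran from 0.0144 to 0.953. At week 9 the untreated libraries had 4.43, 4.87 and 2.53 CPM, EMPA 9w had 4.26 and 4.62, PFD 9w had 6.79 and 3.19, and EMPA + PFD 9w had 2.72, 5.98 and 4.18. In the order of group means, control 9w was highest and control 5w lowest, and control 5w was the only group that did not overlap its neighbour in that order.

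Sesn2 encodes sestrin 2, which restrains mTORC1 signalling when amino acids are short. It had 21.3, 20.2 and 20.1 CPM in control 5w, 26.8, 31.3 and 28.9 in HFpEF 5w and 33.4, 42.1 and 25.7 in control 9w. All HFpEF 5w and all control 9w libraries were above all control 5w libraries, beside 37.7% and 49.4% of all genes without overlap. In HFpEF 5w the log2 fold change was 0.50 (SE 0.14) with an adjusted p of 0.0229 from edgeR with Benjamini-Hochberg adjustment, which is under 0.05 but short of the fold threshold; it lost that p without control 5w replicate 2 (0.48, adjusted p 0.0593) or 3 (0.48, adjusted p 0.0647) and without HFpEF 5w replicate 2 (0.44, adjusted p 0.0757), with only the compared groups fitted (0.51, adjusted p 0.0702) and with the Eif2s3y term, that is replicate 2 alone (0.61, adjusted p 0.0565), with a range over the alternatives of 0.000790 to 0.0757. For control 9w against control 5w it was 0.71 (SE 0.14), adjusted p 0.00193 by the same test and adjustment, also short of it. By the adjusted p alone, 1 of 10 genes passed in HFpEF 5w against 20% of all genes, and 3 of 10 passed in control 9w against 34.5% of all genes.

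At week 9 Sesn2 had 26.8, 29.6 and 27.8 CPM in untreated 9w, within the span of control 9w. The log2 fold change was -0.26 (SE 0.14) with an adjusted p of 0.333 in edgeR with Benjamini-Hochberg adjustment. It ran from -0.427 to -0.075 over the alternatives, with an adjusted p under 0.05 in voom. By the adjusted p alone, 0 of 10 genes passed in edgeR, where 1.78% of all genes did. The disease effect of Sesn2 therefore had opposite signs at the 2 times, and the test of that difference, untreated 9w minus control 9w less HFpEF 5w minus control 5w, gave -0.76 (SE 0.20), adjusted p 0.0159 by the same test and adjustment. With only the compared groups fitted it was again -0.76 but missed the threshold (adjusted p 0.0534; range over the alternatives 0.000197 to 0.0534). Untreated 9w against HFpEF 5w gave -0.05 (SE 0.14), beside the 0.71 between the control groups. EMPA 9w had 26.6 and 28.7 CPM, PFD 9w had 25.2 and 24.1, and EMPA + PFD 9w had 20.1, 22.6 and 23.1. The 3 libraries with both drugs lay below all 3 untreated ones, where 37.4% of all genes had no overlap. The difference was not called, at -0.36 (SE 0.14) with an adjusted p of 0.0975 in edgeR with Benjamini-Hochberg adjustment. In the order of Sesn2 group means, EMPA 9w, PFD 9w and EMPA + PFD 9w came after control 9w, HFpEF 5w and untreated 9w, and EMPA 9w overlapped untreated 9w. Against untreated 9w, EMPA 9w gave -0.02 (SE 0.16) and PFD 9w gave -0.19 (SE 0.16), neither called. The treated groups were not tested against each other. In the GRCr8 table Sesn2 overlaps the gene LOC134487007, so some of its counts could come from there.

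Chac1, an enzyme that breaks down glutathione, had 5 to 33 counts per library. In untreated 9w against control 9w its log2 fold change was 0.97 (SE 0.57), called by voom and not by edgeR or DESeq2. Its levels ran from 0.615 CPM in control 9w replicate 2 to 3.95 in EMPA + PFD 9w replicate 2, and every group overlapped its neighbour in the order of means.

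Asns, Psat1 and Mthfd2 are enzymes of asparagine synthesis, of serine synthesis and of the mitochondrial folate pathway. Asns had 5.37, 8.85 and 9.15 CPM in control 5w and 15.1, 4.77 and 7.86 in HFpEF 5w, followed by 5.98, 3.81 and 6.08 in control 9w and 5.91, 7.15 and 3.06 in untreated 9w. The high value of HFpEF 5w replicate 1 stood alone. Untreated 9w against HFpEF 5w gave Asns a log2 fold change of -0.78 (SE 0.39), not called, with an adjusted p of 0.244 in edgeR with Benjamini-Hochberg adjustment; voom called it at -1.10, and the adjusted p ran from 0.01485 to 0.831 over the alternatives. Psat1 had 9 to 54 counts per library, at 1.06 to 3.88 CPM, with all groups overlapping their neighbours.

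Mthfd2 varied most among the better counted members. It had 21.7, 22.3 and 17.9 CPM in control 5w, 43.8, 11.7 and 19.1 in HFpEF 5w, 56.0, 13.3 and 85.9 in control 9w and 11.1, 14.1 and 10.5 in untreated 9w. Control 9w replicates 1 and 3 stood far above replicate 2, which was below 1 of the untreated libraries. They are also the control 9w libraries with high Myl4 and Sln, while untreated 9w replicate 2, with 1597 CPM of Myl4 and 518 of Sln, was the highest of its group in Mthfd2 but below both of them; the part of atrial tissue, which the harvest of left ventricles would leave out, was not tested.

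Untreated 9w against control 9w gave Mthfd2 a log2 fold change of -2.12 (SE 0.60), with an adjusted p of 0.0767 in edgeR with Benjamini-Hochberg adjustment. DESeq2 called it at -2.13 (adjusted p 0.00844) and limma voom with sample quality weights at -2.25 (adjusted p 0.00191), and over all alternatives the adjusted p ran from 0.00191 to 0.245. The value for control 9w against control 5w was 1.33 (SE 0.58), adjusted p 0.0866 by edgeR with the same adjustment, and without control 9w replicate 2 it was 1.78 and called (adjusted p 0.0234; range over the alternatives 0.000512 to 0.353). Mthfd2 had 13.9 and 25.5 CPM in EMPA 9w, 20.3 and 7.41 in PFD 9w, and 14.4, 24.8 and 33.0 in EMPA + PFD 9w. Each treated group overlapped another. EMPA + PFD 9w lay above untreated 9w in all 3 libraries without being called, where 37.4% of all genes had no overlap.

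The secreted factors Fgf21 and Gdf15, hormones that act on metabolism and appetite, were near the lower end of what these depths can measure. Fgf21 had 1.04, 0.543 and 0.955 CPM in control 5w (11, 7 and 12 counts) and 2.71, 3.32 and 1.80 CPM in control 9w (24, 27 and 18 counts). The groups did not overlap, which held for 49.4% of all genes in this comparison. Fgf21 rose by 1.61 on the log2 scale (SE 0.57), with an adjusted p of 0.0397 from edgeR with Benjamini-Hochberg adjustment. The call was lost without any 1 of the control 5w libraries and without control 9w replicate 1 or 2, with log2 fold changes of 1.79, 1.37, 1.72, 1.59 and 1.41 in that order. It was also lost with the replicate number as a block (1.58) and without either PFD 9w library, at an adjusted p of 0.0508 by the same test and adjustment; over all alternatives the adjusted p ran from 0.000162 to 0.133.

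In HFpEF 5w Fgf21 had 0.431, 3.21 and 2.05 CPM, so replicate 1 was below all of control 5w and the others were above it. The log2 fold change was 1.15 (SE 0.57) with an adjusted p of 0.161 in edgeR with Benjamini-Hochberg adjustment. Without HFpEF 5w replicate 1 it was 1.63 and called (adjusted p 0.0294; range over the alternatives 0.0294 to 0.562). Week 9 gave 2.32, 1.14 and 2.00 CPM in untreated 9w, 2.66 and 2.31 in EMPA 9w, 1.10 and 1.13 in PFD 9w, and 1.66, 1.67 and 0.627 in EMPA + PFD 9w. Both PFD 9w libraries were below every untreated library, on 10 and 11 counts, where 24.2% of all genes had no overlap. The difference was not called.

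Gdf15 had 6 to 62 counts per library. Its highest libraries were EMPA 9w replicate 2 at 5.59 CPM and HFpEF 5w replicate 1 at 4.45, and each of the 2 came from a group whose lowest library was under 2.2 CPM. All groups overlapped their neighbours in the order of means. Gdf15 overlaps Lrrc25 in the GRCr8 table, so its counts could include reads of that gene.

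Over time in diseased rats, untreated 9w against HFpEF 5w, edgeR called 0 of 10, where 0.194% of all genes were called and 0.226% passed the adjusted p alone. None of the 10 had an unadjusted p under 0.05, DESeq2 called 0 and voom called 1, Asns, beside 22.7%, 441 and 1076 of all genes. The values with the lowest p besides Asns were Ddit3 at 0.42 (SE 0.23), adjusted p 0.286, and Mthfd2 at -1.07 (SE 0.59), adjusted p 0.287, both in edgeR with Benjamini-Hochberg adjustment. Over the alternatives Ddit3 ran from 0.125 to 0.656 and Mthfd2 from -1.402 to -0.369. Ddit3 had an adjusted p under 0.05 in voom and, in edgeR, without untreated 9w replicate 2.

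The treatments, which ask whether the drugs shift the genes in established disease, left the 10 genes uncalled. EMPA 9w against untreated 9w gave 0 of 10, where 0.0404% of all genes were called by either rule. PFD 9w against untreated 9w gave 0 of 10, where 0.00807% of all genes were called by either rule. The interaction of the drugs, the effect of both less the sum of the single effects, gave 0 of 10, also beside 0.00807% by either rule. In these 3 comparisons none of the 10 had an unadjusted p under 0.05 in edgeR, and DESeq2 and voom called 0.

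EMPA + PFD 9w against untreated 9w gave 0 of 10, where 3.82% of all genes were called and 12.1% passed the adjusted p alone. There 1 of the 10, Sesn2, had an unadjusted p under 0.05 in edgeR beside 32.7% of all genes, and DESeq2 and voom called 0, beside 714 and 834 of all genes. The median log2 fold change was -0.22 over the 10 genes and -0.03 over all genes. Ddit3, with 65.2, 42.1 and 42.4 CPM under both drugs, gave -0.42 (SE 0.23) with an adjusted p of 0.216 in edgeR with Benjamini-Hochberg adjustment. Over the alternatives its value ran from -0.845 to -0.113, with an adjusted p under 0.05 in voom.

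The difference of the disease effect between weeks 9 and 5 was tested for all genes. It was called for 0 of 10 against 12% of all genes, and 1 of 10, Sesn2, passed the adjusted p alone against 20%. In edgeR 3 of the 10 had an unadjusted p under 0.05 beside 35.3% of all genes, and DESeq2 called 2 and voom 3, beside 1795 and 2559 of all genes. The median was -0.65 over the 10 genes and -0.02 over all genes, and 9 of 10 values were negative. Trib3 had -1.71 (SE 0.62), with an adjusted p of 0.0638 in edgeR with Benjamini-Hochberg adjustment. Mthfd2 had -2.39 (SE 0.82), adjusted p 0.0525, and Fgf21 had -1.67 (SE 0.79), adjusted p 0.144, by the same test and adjustment. Leaving out single libraries brought calls: Trib3 without HFpEF 5w replicate 2 at -2.06 (adjusted p 0.0247) and without untreated 9w replicate 2 at -1.89 (adjusted p 0.0476), with a range over its alternatives of 0.00126 to 0.139. Mthfd2 was called without HFpEF 5w replicate 2 at -2.73 (adjusted p 0.0380) and without control 9w replicate 2 at -2.85 (adjusted p 0.0216), with a range of 0.00929 to 0.144. Fgf21 was called without HFpEF 5w replicate 1 at -2.16 (adjusted p 0.0253), with a range of 0.0253 to 0.364.

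In some groups the genes moved apart and in others most moved together. EMPA 9w replicate 2 was the higher of its group for all genes but Fgf21, and PFD 9w replicate 1 for all but Ddit3 and Fgf21. HFpEF 5w replicate 2 was the lowest of its group for 7 genes. HFpEF 5w replicate 1 was the highest of its group for 5 genes (Atf4, Asns, Gdf15, Psat1 and Mthfd2) and the lowest for 3 (Ddit3, Sesn2 and Fgf21). Control 9w replicate 2 was the highest for 4 (Atf4, Ddit3, Sesn2 and Fgf21) and the lowest for the other 6. In these last 2 libraries Ddit3, Sesn2 and Fgf21 went together and opposite to Asns, Gdf15, Psat1 and Mthfd2. Over the 19 libraries, Pearson's r of log2 CPM between members had a median of 0.19 over 45 pairs, of which 34 were positive. The highest were 0.64 for Sesn2 with Fgf21, 0.62 for Ddit3 with Fgf21 and 0.56 for Psat1 with Mthfd2, and the lowest were -0.69 for Ddit3 with Asns and -0.64 for Asns with Fgf21. These values describe 19 libraries that share group effects, depth and tissue composition.

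For each member the genes with the most similar pattern were found over the same 19 libraries, with r as a description. Atf4 was nearest to Map2k5 at 0.75, Orai1 at 0.73 and Snrnp200 at 0.71, values about as low as those of Psat1 below. Sesn2 had the closest, Ebf3 at 0.97, Pcsk7 at 0.96 and Ddx39a at 0.94. Trib3 was nearest to Csrnp1 at 0.91, Ddit4 at 0.90 and Per1 at 0.89, and Ddit3 to Dtnbp1 at 0.89, Ces1c at 0.86 and Exosc7 at 0.84. None of the nearest genes of any member was another member. Fgf21 was nearest to Ca4 at 0.88, Tspan15 at 0.87 and Cabp1 at 0.87, and Gdf15 to Hs3st2 at 0.82, Cnksr3 at 0.81 and Krt18 at 0.81. Asns was nearest to Agpat5, Tbxas1 and Cbfb, each at 0.84, and Psat1 to Gldn at 0.74, Adam23 at 0.73 and LOC681325 at 0.72. Chac1 was nearest to Cln8 at 0.81, Harbi1 at 0.80 and Arrdc3 at 0.78, and Mthfd2 to Sdc4 at 0.82, Gal at 0.81 and Gpatch4 at 0.80.

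Promoter sequence was read because Trib3 and Fgf21 were called in the same comparison. All 10 members matched the RefSeq promoter table of GRCr8, which gives 250 bases before to 50 after each gene start. The 8-letter core TGATGNAA of the composite element to which ATF4 and C/EBP factors bind was searched on both strands. It was in 3.98% of 33469 promoters of 300 bases and in those of 3 members, Trib3, Chac1 and Fgf21. These stretches, shown because all 3 genes have it, carry that match in capitals, read 5′ to 3′ on the strand of the gene, where it appears as its reverse complement. They lie at chr3:161275517-161275584 on the minus strand for Trib3, chr3:126795934-126796001 on the plus strand for Chac1 and chr1:105221482-105221549 on the minus strand for Fgf21.
Trib3: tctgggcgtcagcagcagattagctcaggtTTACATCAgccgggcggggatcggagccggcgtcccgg
Chac1: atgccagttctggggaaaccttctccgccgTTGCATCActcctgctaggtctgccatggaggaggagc
Fgf21: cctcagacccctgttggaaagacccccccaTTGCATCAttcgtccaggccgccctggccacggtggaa
The first base of the match is at position -21 from the gene start in Trib3, at -167 in Chac1 and at -143 in Fgf21. A match of letters describes the sequence only, and its absence from the other windows says nothing of ATF4 there.

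The wider pathway was described from lists of genes around the 10. Outside the members, 108 listed pathway genes were tested. In HFpEF 5w against control 5w, 4 were called higher and 5 lower, or 8.33% beside 8.69% of all genes. Of the same genes in control 9w against control 5w, 3 were called higher and 8 lower, or 10.2% beside 14.7%.

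Upstream of Atf4 nothing was called. Of 10 genes for the eIF2 kinases, eIF2 itself and its phosphatase subunits, 0 were called in any of the 9 comparisons in edgeR, with Gcn1, the partner of the amino acid sensor GCN2, and Dele1, which relays mitochondrial stress, leading the list. The same was true of the 5 subunits of eIF2B, the exchange factor the response inhibits, led by Eif2b5 and Eif2b4. It also held for 12 aminoacyl-tRNA synthetase genes, the part of 24 listed symbols that was in the files, led by Eprs and Aars, and for the 14 genes of the endoplasmic reticulum unfolded protein response, led by the chaperones Hspa5 and Canx. By the adjusted p alone, the kinase list had 2 higher and 1 lower in HFpEF 5w against control 5w, 3 of 10 beside 20% of all genes. It had 4 higher and 2 lower in control 9w against control 5w, 6 of 10 beside 34.5%. In the latter comparison 4 of the 12 synthetase genes and 1 of the 14 unfolded protein response genes were lower by that rule, and in the former 0 and 1.

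Of 10 stress transcription factors, 1 was called in both comparisons with control 5w, Cebpb, a partner of ATF4 in binding DNA. The shares of all genes called were 8.69% in HFpEF 5w and 14.7% in control 9w. Cebpb had 11.9, 22.7 and 23.8 CPM in control 5w, 89.9, 27.7 and 101.6 in HFpEF 5w and 64.0, 60.6 and 66.7 in control 9w. Cebpb and Trib3 shared the same low library in HFpEF 5w, replicate 2. Cebpb rose by 1.91 (SE 0.44) in HFpEF 5w, adjusted p 0.0108, and by 1.71 (SE 0.44) in control 9w, adjusted p 0.00907, both in edgeR with Benjamini-Hochberg adjustment. With only the compared groups fitted the first call was lost at the same 1.91 (adjusted p 0.0739). With the Eif2s3y term, where replicate 2 stands alone, it was 0.51 (adjusted p 0.496) and not called, over a range of 0.000274 to 0.496.

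Of 12 stress effectors, Ddit4, an inhibitor of mTORC1, and Cdkn1a, a cell cycle inhibitor, were called higher in HFpEF 5w, beside 8.69% of all genes in either direction. Ddit4 had 30.6, 59.3 and 66.5 CPM in control 5w, 197, 105 and 183 in HFpEF 5w and 253, 249 and 186 in control 9w. It rose by 1.63 (SE 0.34) in HFpEF 5w, adjusted p 0.00719, and by 2.14 (SE 0.35) in control 9w, adjusted p 0.000679, both in edgeR with Benjamini-Hochberg adjustment; the first kept its call in all alternatives but the Eif2s3y term, where replicate 2 alone gave 1.02. Cdkn1a rose by 1.13 (SE 0.33), adjusted p 0.0273 by the same test and adjustment, a call lost without control 5w replicate 1 (0.92) or 3 (1.21) and without HFpEF 5w replicate 1 (1.14) or 3 (0.84). It was also lost in a fit of the compared groups alone (1.14) and with the Eif2s3y term, where replicate 2 stands alone (0.48), over a range of adjusted p from 0.00131 to 0.465. In control 9w against control 5w, 1 of 12 was called higher, Ddit4, and 2 lower, beside 14.7% of all genes in either direction. The lower ones, Vldlr and Sesn3, fell by 1.43 (SE 0.27) and by 1.78 (SE 0.36). In untreated 9w against control 9w, 1 of 12 was called beside 0.912% of all genes: Tnfrsf10b, a death receptor gene, fell by 1.46 (SE 0.34), with an adjusted p of 0.0434 in edgeR with Benjamini-Hochberg adjustment, and lost the call in 10 of 15 alternatives. These include leaving out control 9w replicate 1 (-1.56), 2 (-1.42) or 3 (-1.41) and untreated 9w replicate 1 (-1.28) or 3 (-1.44).

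Genes of amino acid supply outside the members were called only lower in comparisons with control 5w. Of 9 genes for other amino acids, 2 were called lower in HFpEF 5w, beside 8.69% of all genes in either direction, and 1 in control 9w, beside 14.7%. Pycr1, an enzyme of proline synthesis, fell by 1.44 (SE 0.38) in HFpEF 5w and by 1.69 (SE 0.39) in control 9w. The first call was lost without control 5w replicate 2 (-1.34) or 3 (-1.36) and without HFpEF 5w replicate 2 (-1.09), and with only the compared groups fitted (-1.44). Got1, an aspartate transaminase, fell by 1.54 (SE 0.52) in HFpEF 5w and lost the call without control 5w replicate 1 (-0.95) or 3 (-1.75) and without HFpEF 5w replicate 1 (-1.27) or 2 (-1.45). Got1 lost it in 9 of 15 alternatives in all, with voom (-0.64) among them. Of 11 serine and one-carbon enzymes, to which Psat1 and Mthfd2 belong by function, Aldh1l2 fell by 2.56 (SE 0.59) in control 9w against control 5w and none was called in HFpEF 5w. None of 9 amino acid transporters was called in either comparison.

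Mitochondrial chaperones and proteases, the targets of the mitochondrial unfolded protein response, had calls in several comparisons. In HFpEF 5w, 3 of 11 were called lower and 0 higher, beside 8.69% of all genes called in either direction, with a median log2 fold change of -0.65 beside 0.02 over all genes. Hspa9, the mitochondrial Hsp70, had 703, 353 and 387 CPM in control 5w and 126, 91.2 and 191 in HFpEF 5w. These were without overlap, as for 37.7% of all genes. Hspa9 fell by 1.82 (SE 0.40), adjusted p 0.00826 in edgeR with Benjamini-Hochberg adjustment, and kept its call in all 15 alternatives. Spg7, a protease of the inner membrane, fell by 1.08 (SE 0.16), and Hspd1, the chaperonin Hsp60, fell by 1.12 (SE 0.34). Hspd1 lost its call without control 5w replicate 1 (-0.88) or 3 (-1.21) and without HFpEF 5w replicate 1 (-1.10) or 2 (-0.94), under voom (-0.70), with only the compared groups fitted (-1.12) and with the Eif2s3y term, where replicate 2 stands alone (-1.58). Spg7 lost it without control 5w replicate 1 (-0.93) or HFpEF 5w replicate 1 (-0.995) and under voom (-0.83). The count of 3 dropped to 1 under voom, without control 5w replicate 1 and without HFpEF 5w replicate 1, the libraries at the 2 ends of the cardiomyocyte sums in their comparison.

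Of these 11, in control 9w against control 5w, 4 were called lower, beside 14.7% of all genes in either direction, with a median of -0.41 beside -0.04. Hspa9 had 134, 128 and 167 CPM in control 9w and fell by 1.75 (SE 0.40); Spg7, Hspd1 and Dnaja3 were the others. The count dropped to 1 without control 5w replicate 1 and to 2 without control 9w replicate 1 or 2. In untreated 9w, Hspa9 had 396, 112 and 294 CPM, and the low library was replicate 2, the one with high Myl4. The difference of the disease effect between weeks was called for 5 of 11, all positive, beside 12% of all genes, with Hspa9 at 2.72 (SE 0.56), adjusted p 0.00583 in edgeR with Benjamini-Hochberg adjustment. That count dropped to 2 without untreated 9w replicate 1 and with only the compared groups fitted.

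EMPA + PFD 9w against untreated 9w raised 1 of the 11, Hspa9, to 506, 879.9 and 758 CPM, by 1.42 (SE 0.39), with an adjusted p of 0.0347 in edgeR with Benjamini-Hochberg adjustment, where 3.82% of all genes were called. The call was lost without untreated 9w replicate 2 (1.05) or 3 (1.51) and without EMPA + PFD 9w replicate 2 (1.26) or 3 (1.40), with only the compared groups fitted (1.41) and with the Eif2s3y term estimated in HFpEF 5w (2.21), over a range of adjusted p from 0.00220 to 0.129. In the same comparison 3 of 12 effectors and 1 of 9 genes for other amino acids were called. Sesn1 and Herpud1 of the effector list rose by 1.60 (SE 0.30) and 1.20 (SE 0.28), Bbc3, a cell death gene, fell by 1.39 (SE 0.25), and Glul, glutamine synthetase, rose by 1.03 (SE 0.26). Of these, Sesn1 lost its call without untreated 9w replicate 2 (1.497) or EMPA + PFD 9w replicate 2 (1.32), and Herpud1 without untreated 9w replicate 2 (0.96) or EMPA + PFD 9w replicate 2 (1.06) or 3 (1.11). Glul lost it without untreated 9w replicate 2 (0.98) or 3 (1.06) and without EMPA + PFD 9w replicate 2 (0.94) or 3 (0.87), with upper-quartile scaling (0.93) and without the filter (0.99). All 4 lost it with only the compared groups fitted, at 1.59, 1.19, -1.40 and 1.01 for Sesn1, Herpud1, Bbc3 and Glul, and with that term Sesn1 (2.03) and Herpud1 (1.63) lost it. Neither drug alone gave a call on any pathway list.

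**Figure D3:**
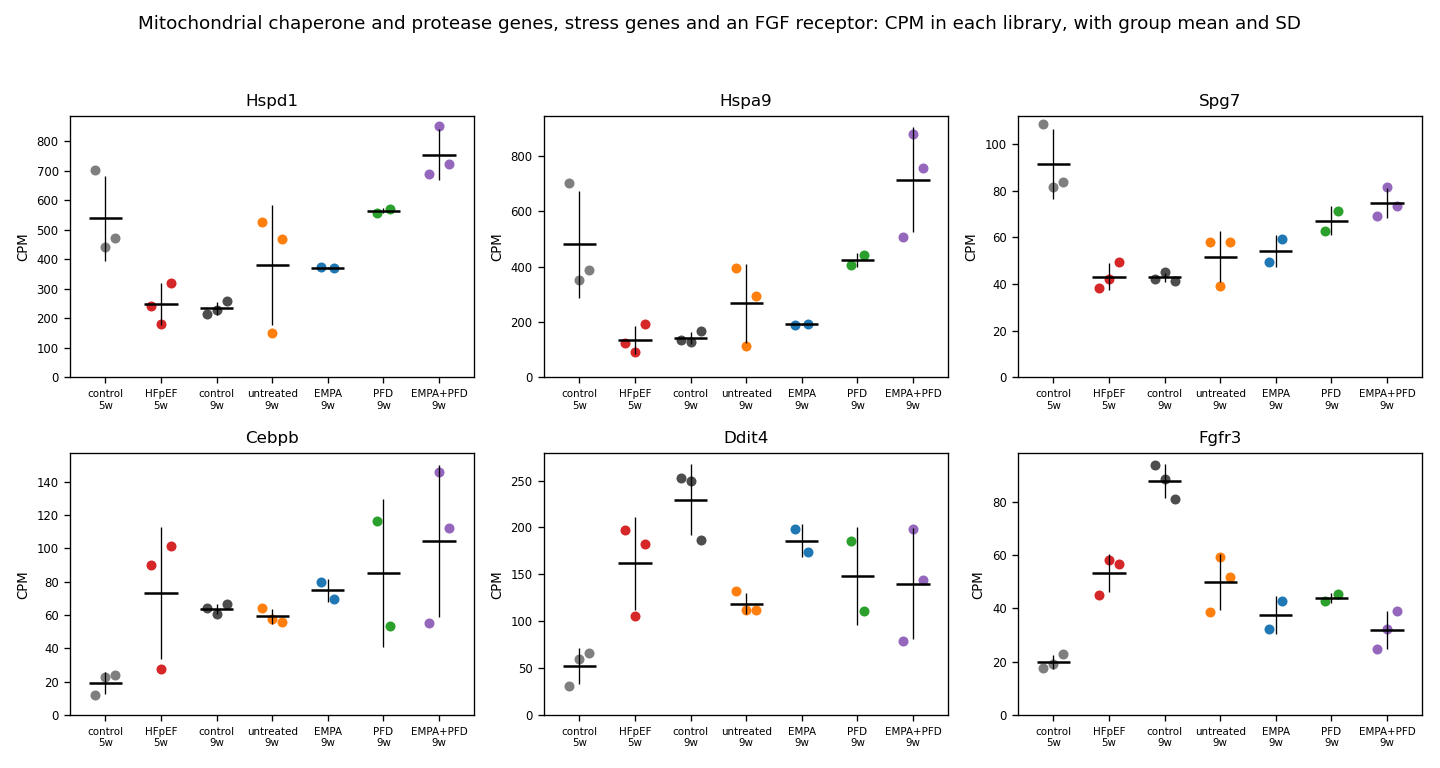
Each panel plots CPM of 1 pathway gene on a vertical axis that starts at 0, with the 7 groups along the horizontal axis; points are libraries, thick lines are group means and thin lines are SD. Hspa9 lies between 353 and 703 CPM in control 5w and between 91.2 and 191 in HFpEF 5w, while Cebpb and Ddit4 are lowest in control 5w.

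Of the genes for receptors of FGF21 and GDF15, 5 were tested. Fgfr3, one of the FGF receptors, had 17.6, 19.3 and 22.8 CPM in control 5w, 44.9, 58.0 and 56.8 in HFpEF 5w and 94.0, 88.6 and 81.2 in control 9w. It rose by 1.42 (SE 0.19) in HFpEF 5w, adjusted p 0.000585, and by 2.14 (SE 0.19) in control 9w, adjusted p 1.45e-05, both in edgeR with Benjamini-Hochberg adjustment, and kept both calls in all alternatives. Klb, the co-receptor that FGF21 needs, was among the 7 listed symbols, of which 6 were in the files, and its values are not reported here.

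Markers of cell types moved in the same comparisons, and their part in the results was not tested; in whole tissue, fewer cells of a type and less RNA per cell cannot be told apart. The shares of all genes called, to set beside the counts that follow, were 8.69% in HFpEF 5w against control 5w, 0.912% in untreated 9w against control 9w, 14.7% in control 9w against control 5w, 3.82% under both drugs and 12% for the difference of the disease effect. In HFpEF 5w, 2 of 8 cardiomyocyte genes were called lower, Ryr2 by 1.24 (SE 0.33) and Atp2a2 by 1.70 (SE 0.49) on the log2 scale, beside the fall of Hspa9, Hspd1 and Spg7. All 8 values were negative, with a median of -1.25. Called higher there were Cd8a (1.85) and Cd3d (1.83) of 5 lymphocyte genes, Vwf (1.01) of 5 endothelial, Fabp4 (1.42) of 3 adipocyte, Hba-a1 (2.69) of 5 erythroid and Apoa1 (1.99) of 2 hepatocyte genes. The summed lymphocyte level, led by Cd8a, was 6.22, 10.2 and 11.4 CPM in control 5w and 37.6, 24.3 and 29.8 in HFpEF 5w, with 2 of its genes at 0 in control 5w replicate 1. In the difference of the disease effect, where 5 mitochondrial genes were positive, all 8 cardiomyocyte values were positive, with a median of 1.68, Ryr2 (1.48) and Atp2a2 (2.05) were called, and 4 of 5 erythroid genes were called negative. Fabp4 (-2.07) and Pecam1 (-1.26) were also called negative. Rgs5 (1.07) was called positive, on a smooth muscle and pericyte list where 3 of 5 values were negative, with a median of -0.21. In untreated 9w against control 9w, Alas2 (-2.93) and Hbb (-2.65) of 5 erythroid genes were called lower and Cd3e (2.50) of 5 lymphocyte genes higher. The summed erythroid level, led by Hbb and with at most 1 of 6 genes at 0, was 1535, 1833 and 1181 CPM in control 9w and 233.5, 185.5 and 306 in untreated 9w. In untreated 9w against HFpEF 5w, 4 of 5 erythroid genes were called lower, Hba-a1, Alas2, Hbb and Slc4a1, beside 0.194% of all genes. Their list had a median of -3.52. All 8 cardiomyocyte and all 5 atrial values were positive in that comparison, with medians of 1.09 and 6.03. Under both drugs, where Hspa9 rose, all 8 cardiomyocyte values were positive with a median of 0.89 and Ryr2 (1.10) was called. There the atrial genes Sln and Myl4, high in untreated 9w replicate 2, were called lower. Slc4a1 (3.74) of 5 erythroid genes was called higher, on a list with a median of 0.1. All 5 endothelial and all 5 lymphocyte values were negative, with medians of -0.74 and -1.41. In control 9w against control 5w, where Trib3 and Fgf21 rose, 4 of 6 fibroblast genes and 4 of 6 macrophage genes were called lower and 3 of 5 endothelial genes higher. Fabp4 (1.87) of 3 adipocyte genes and Myh11 (1.33) of 5 smooth muscle and pericyte genes were also called higher. Of those 5, however, 3 had negative values, and their median was -0.01. Ccnb1 and Top2a of 5 genes of dividing cells were called lower. The summed adipocyte level, led by Fabp4 and with 0 to 4 of its 5 genes at 0, was 933, 541 and 618 CPM in control 5w, 652, 3004 and 1959 in HFpEF 5w and 2627, 3653 and 1345 in control 9w. The libraries stood in the same order for Fgf21 within each of these 3 groups and in EMPA 9w, but not in untreated 9w, PFD 9w or EMPA + PFD 9w. The summed fibroblast level, led by Dcn, was 3140, 15310 and 12710 CPM in control 5w and 2828, 2015 and 2710 in control 9w. The summed macrophage level, led by Lyz2, was 537, 1888 and 1492 CPM in control 5w and 287, 231 and 335 in control 9w. The summed endothelial level, led by Vwf, was 1368, 1182 and 1354 CPM in control 5w and 2935, 2927 and 2544 in control 9w. Control 5w replicate 1 was the lowest of its group in the fibroblast and macrophage sums and the highest in the cardiomyocyte sum, and it also had the lowest Trib3 level. No fibroblast, macrophage or endothelial marker was at 0 in any library. Atrial genes were called in the same comparison, 2 of 5 higher, in step with control 9w replicates 1 and 3.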

How the data were processed

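The deposited files hold whole-number read counts per gene symbol for 19 heart libraries, made by the authors; the submitters' processing notes name Trim Galore, FastQC, HISAT2, HTSeq and DESeq2 and the build rn6, and their versions and the strand setting are not given in the sources used here. Symbols were used as the files give them. The counts were scaled by TMM, filtered with filterByExpr and fitted in 1 model of the 7 groups with edgeR's quasi-likelihood test (edgeR 4.0.16, limma 3.58.1, R 4.3.3), with Benjamini-Hochberg adjustment over 12388 genes, and the fitting was tested on simulated data. At these depths 10 counts stand for 0.718 to 1.33 CPM. The genes named were the 10 members, listed genes called in a comparison, the genes highest in mean CPM of lists without calls and the 3 nearest genes by correlation. The members and gene lists were chosen with earlier results of these data known. Alternatives were other scalings and filters, DESeq2 1.42.0, limma voom with sample quality weights, only the groups compared, a replicate block, a term for Y-linked counts, the adjusted p alone and leaving out each library. Promoters came from RefSeq (GRCr8). The p-values treat libraries as separate animals, as the labels number them.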

Additional observations from a re-analysis of the deposited data

Results flagged for a closer look

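The disease effect at week 9 (untreated 9w less control 9w) was compared with that at week 5 (HFpEF 5w less control 5w) by a test of the difference itself in edgeR, with an adjusted p under 0.05 required of members and, of the other pathway genes, also a log2 difference of 1 or more in either direction. Of the 10 members, Sesn2 passed, at -0.76 on the log2 scale, where 20% of all genes passed the adjusted p alone. Of the 108 other pathway genes tested, 8 passed with a positive and 5 with a negative difference, or 12%. The share of all genes called was also 12%, so nothing particular to the pathway is read from the count. Of the other pathway genes that passed, the difference was negative for Cebpb at -2.01, Jdp2 at -1.19, Ddit4 at -2.58, Tnfrsf10b at -1.58 and Fgfr3 at -2.23. It was positive for Pycr1 at 1.97, Slc38a2 at 1.18, Vldlr at 1.57, Hspd1 at 1.83, Hspa9 at 2.72, Spg7 at 1.35, Trap1 at 1.03 and Dnaja3 at 1.75. For Cebpb, Ddit4, Fgfr3, Hspa9, Pycr1, Vldlr, Hspd1, Spg7 and Dnaja3 the controls were themselves called different between the weeks, in the direction opposite to this difference, and the comparisons share these control libraries. By the adjusted p alone this held for Sesn2 too, at 0.71 in control 9w against control 5w, while untreated 9w against HFpEF 5w gave -0.05. All 3 untreated 9w libraries had 0 counts of Eif2s3y and all control libraries had counts, so its part in the difference cannot be told apart from disease at week 9. Among 21 alternatives Trap1 lost its call in 15, Jdp2 in 9, Cebpb in 8, Tnfrsf10b in 6 and Pycr1, Hspd1 and Dnaja3 in 2 each, while Slc38a2, Ddit4, Vldlr, Hspa9, Spg7 and Fgfr3 kept theirs in all. With only the compared groups fitted, Sesn2 no longer passed the threshold.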

How the results depend on the processing

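Alternatives for single members were followed only for 21 log2 fold changes, chosen for a low unadjusted p in the main edgeR fit. Those with a higher p were not followed, so kept direction says nothing of them. Of the 336 alternative values for these fold changes, 335 kept their direction, 6 lost a call and 22 gained one. The value that turned was Trib3 in HFpEF 5w against control 5w, at -0.068 with a term for Y-linked counts. That term varies only within HFpEF 5w, so the value is replicate 2 alone, and values with the term say nothing of stability. For listed pathway genes only the 39 fold changes called in the main fit were followed, so that their direction would hold was nearly fixed in advance. All 663 alternative values for these kept their direction, and 118 lost a call. The alternatives for listed genes were added after seeing the data.

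The number of members called in HFpEF 5w against control 5w was 0, with 2 under voom, 1 by the adjusted p alone and 0 to 1 on leaving out libraries. In untreated 9w against control 9w it was 0, with 1 under DESeq2, 2 under voom and 0 to 0 on leaving out libraries. In control 9w against control 5w it was 2, with 1 under a filter of at least 10 counts in every library, which dropped Fgf21, 3 under voom, 3 by the adjusted p alone and 1 to 2 on leaving out libraries. In untreated 9w against HFpEF 5w it was 0, with 1 under voom and 0 to 0 on leaving out libraries. For the difference of the disease effect it was 0, with 1 under the filter of 10 counts, 2 under DESeq2, 3 under voom, 2 with the Y-linked term, 1 by the adjusted p alone and 0 to 2 on leaving out libraries. The drug comparisons stayed at 0 in all their alternatives. The cause of these shifts was not tested.

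With the replicate number as a block, 1 member, Trib3, was called in control 9w against control 5w in place of 2, as Fgf21 was lost. Same-numbered libraries did not in general deviate together (r from -0.53 to 0.49 over 52 pairs, 11 of them over 0.1), and 5 of 19 libraries correlated best with their own number. No pairing by number was seen, but deviations from the means of such small groups cannot exclude it.

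Counts of called mitochondrial unfolded protein response genes were 3 in HFpEF 5w against control 5w (1 under voom; 1 to 4 on leaving out libraries), 4 in control 9w against control 5w (2 under voom; 1 to 4) and 5 for the difference (2 with only the groups compared; 2 to 7).

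Over all genes, 1076 were called in HFpEF 5w against control 5w, and 460 with only the groups compared. For untreated 9w against control 9w 113 were called, with 297 under DESeq2, 1037 under voom, 62 with the block and 2 with the Y-linked term. For untreated 9w against HFpEF 5w 24 were called, with 441 under DESeq2, 1076 under voom, 259 with the Y-linked term, 36 under upper-quartile scaling, 8 with the block and 1 with only the groups compared. EMPA alone gave 5, with 51 under DESeq2, 24 under voom, 1 with the block and 0 with the Y-linked term, and PFD alone gave 1, with 4 under DESeq2, 5 under voom and 0 with the block. The drug interaction gave 1, with 38 under DESeq2 and 63 under voom. EMPA + PFD gave 473, with 714 under DESeq2, 834 under voom and 5 with only the groups compared; 290 of the 473 were higher, against 240 of 515 under upper-quartile scaling and 172 of 429 with the Y-linked term. The difference of the disease effect gave 1489, and 2559 under voom. On leaving out single libraries, EMPA + PFD ran from 59 (EMPA + PFD 9w replicate 2 out) to 910, untreated 9w against control 9w from 7 (control 9w replicate 2 out) to 413, untreated 9w against HFpEF 5w from 4 to 933, the difference from 877 to 2241, control 9w against control 5w from 1206 to 2025 (1817 with all libraries), EMPA alone from 4 to 15, PFD alone from 0 to 2 and the interaction from 1 to 10. In EMPA 9w and PFD 9w, leaving out a library leaves 1, assumed to vary like the other groups. Chac1, Fgf21, Gdf15 and Psat1 had under 10 counts in some libraries.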
